A study of Mus musculus with 23 samples.

Results

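The 5 kainate receptor genes Grik1, Grik2, Grik3, Grik4 and Grik5 were followed in the mouse nucleus accumbens, which belongs to the ventral striatum, on whole-transcript microarrays. They were chosen by name, as the probe sets whose single gene symbol is one of these 5, out of 22180 genes that the array's annotation names by 1 symbol. Each of the 5 had 1 such probe set, and all were measured on all 23 arrays. The groups were 6 arrays of males injected in the accumbens with adeno-associated virus (AAV) carrying a short hairpin RNA against Nr1d1 (knockdown), 6 of males given AAV with a scrambled hairpin (control), 6 of knockdown females and 5 of control females. All mice were C57BL/6 of about 15 weeks, and the nucleus accumbens was dissected out about 5 weeks after injection. The arrays are labelled as biological replicates, and no source used here says whether each holds 1 animal. Nr1d1 encodes REV-ERBα, a repressor of the circadian clock. The labels also place collection on postpartum day 7, for males as well, so reproductive state was not used. The promoter that drove the hairpin, the share of cells that took up the virus and the hour of collection are not stated in them either.

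Kainate receptors are glutamate-gated cation channels built from 4 subunits. Grik1, Grik2 and Grik3 encode GluK1, GluK2 and GluK3, which can form working channels by themselves, whereas Grik4 and Grik5 encode GluK4 and GluK5, which bind kainate with high affinity and reach the surface only together with GluK1, GluK2 or GluK3. The receptors act after the synapse as slow excitatory channels and before it as regulators of transmitter release. In the striatum they have been described on projection neurons, on interneurons and on the glutamatergic fibres that enter from the cortex.

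The deposited values are log2 intensities, in which 1 unit is a doubling of the signal. Array medians lay between 5.84 and 5.88 in males and between 6.11 and 6.17 in females, as if each sex had been normalized by itself, so levels were not compared between the sexes. The sex labels fitted the sex-linked transcripts on every array, with Xist at 3.85 to 4.12 in males and 11.40 to 11.78 in females. Nr1d1 itself was not lower in the arrays labelled knockdown beyond the spread between arrays. In males its lowest, median and highest values were 9.44, 9.565 and 9.76 in the knockdown arrays, against 9.42, 9.495 and 9.85 in the controls. In females they were 9.73, 9.98 and 10.17 in the knockdown arrays, against 9.93, 10.06 and 10.09 in the controls. By limma the differences were −0.012 (SE 0.085, adjusted p = 0.997) in males and −0.052 (SE 0.090, adjusted p = 0.963) in females. Every direction given below for knockdown against control therefore rests on the labels. Of the markers of medium spiny neurons, the main cell type of the region, 10 of 13 had a probe set of their own, and Penk lay between 12.41 and 12.93 on all arrays. Markers of cortical excitatory neurons were present too and varied widely between samples, as described with the results they touch.

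The 5 genes differed in how much they varied between arrays of the same group. Grik1, whose subunit is found mostly on interneurons and sensory neurons, was the most variable of them in males, where its within-group SD of 0.23 exceeded that of 82.1% of all probe sets. In females its SD was 0.16. Grik3 had an SD of 0.18 in males and 0.17 in females, and Grik2 one of 0.11 in males and 0.13 in females. Grik5 varied less, with an SD of 0.10 in males and 0.061 in females. Grik4 had an SD of 0.069 in males, above that of only 5.87% of all probe sets, and of 0.076 in females. By mean level, Grik2 stood above 97.1%, Grik5 above 94.4%, Grik3 above 92.7%, Grik4 above 78.6% and Grik1 above 67.3% of all probe sets. Probe sets differ in how strongly they hybridise, so these ranks show that the probe sets gave signal and give no order of abundance between the subunits.

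**Figure D1:**
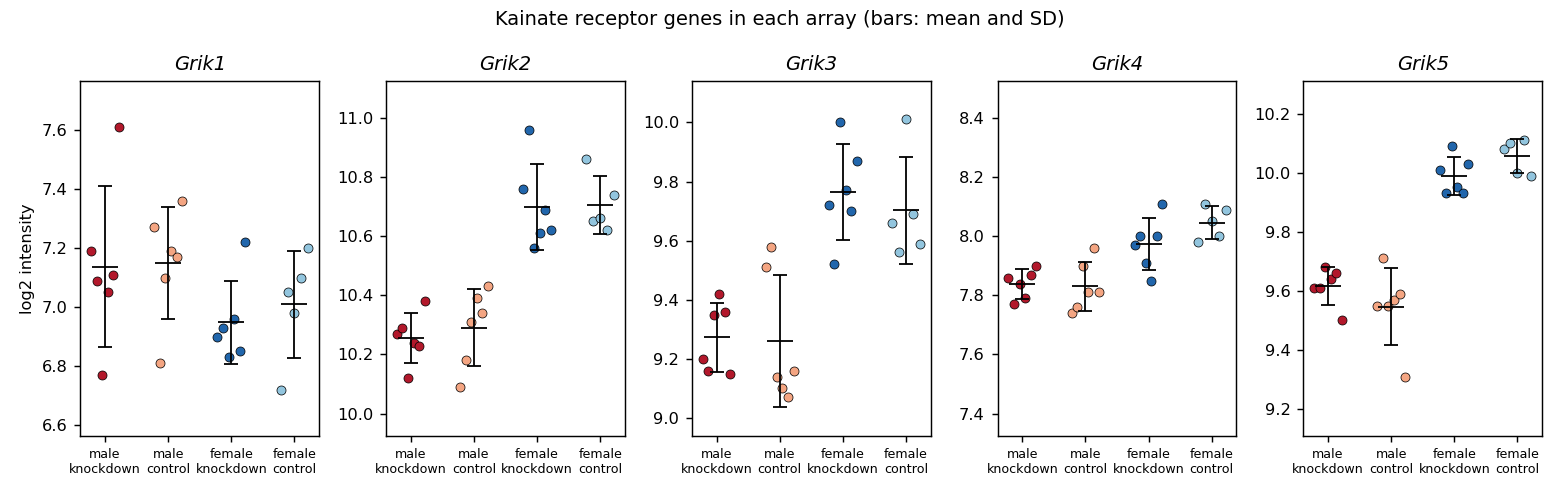
The log2 intensity of the 5 kainate receptor genes, with 1 point per array, and the mean and SD of each group (6 male knockdown, 6 male control, 6 female knockdown and 5 female control arrays). Each panel spans 1.2 log2 units around its own centre; knockdown and control arrays overlap for every gene in both sexes, and the offset between the sexes cannot be told apart from the normalization.

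The promoters of Grik2 and Grik3 are shown because these genes moved in opposite directions with cortical marker signal, as described further on. Of the 5 genes, 4 (Grik2, Grik3, Grik4 and Grik5) matched the RefSeq promoter table of build GRCm38.p6, and for each the 250 bases before the annotated start were read. Capitals mark CG dinucleotides. The Grik2 window is chr10:49788755-49789004 on the minus strand and the Grik3 window chr4:125490446-125490695 on the plus strand, both written 5′ to 3′ along the gene.
Grik2: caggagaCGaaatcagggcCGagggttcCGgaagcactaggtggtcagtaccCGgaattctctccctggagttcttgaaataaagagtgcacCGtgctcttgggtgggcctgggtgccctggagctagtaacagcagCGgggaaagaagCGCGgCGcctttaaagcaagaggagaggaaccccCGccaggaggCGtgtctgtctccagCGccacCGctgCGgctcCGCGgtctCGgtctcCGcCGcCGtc
Grik3: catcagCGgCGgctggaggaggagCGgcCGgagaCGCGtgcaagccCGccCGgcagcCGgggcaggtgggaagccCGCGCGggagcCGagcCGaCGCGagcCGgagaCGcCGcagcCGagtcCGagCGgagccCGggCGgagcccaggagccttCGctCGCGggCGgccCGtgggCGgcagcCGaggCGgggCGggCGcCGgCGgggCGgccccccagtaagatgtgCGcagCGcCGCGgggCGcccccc
The Grik2 window held 20 CG dinucleotides and 62.8% G and C, and the Grik3 window 42 and 82.0%. The windows of Grik4 and Grik5, not printed, held 36 and 69.6%, and 8 and 75.2%. The medians over all 32851 promoters of the table were 6 and 52.4%. The letters AGGTCA, the half-site that REV-ERB proteins bind, were searched on both strands. They occurred in 14.02% of all promoters and in none of the 4 kainate receptor promoters, which says only that these letters are not in these windows.

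The first question was whether the kainate receptor genes differ after delivery of the Nr1d1 hairpin. None of the 5 passed the threshold of an adjusted p of 0.05 in either sex. In males the differences ran from −0.035 for Grik2 to 0.070 for Grik5, and in females from −0.073 for Grik4 to 0.061 for Grik3.

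Among the subunits that form channels by themselves, Grik2 had the smallest within-group SD. In males its lowest, median and highest values were 10.12, 10.255 and 10.38 in knockdown arrays, against 10.09, 10.325 and 10.43 in controls. In females they were 10.56, 10.655 and 10.96 in knockdown arrays, against 10.62, 10.65, 10.66, 10.74 and 10.86 in the 5 controls. The groups overlapped over most of their range in both sexes, and the differences were −0.035 (SE 0.069) in males and −0.006 (SE 0.072) in females. Grik3 in males stood at 9.15, 9.275 and 9.42 (lowest, median and highest) in knockdown arrays, against 9.07, 9.15 and 9.58 in controls. The male controls had 4 arrays between 9.07 and 9.16 and 2 at 9.51 and 9.58, which enclosed all knockdown arrays from above and below. In females Grik3 stood at 9.52, 9.745 and 10.00 in knockdown arrays, against 9.56, 9.59, 9.66, 9.69 and 10.01 in controls. Its differences were 0.013 (SE 0.097) in males and 0.061 (SE 0.102) in females. Grik1 averaged 7.14 ± 0.27 (SD, n = 6) in male knockdown arrays against 7.15 ± 0.19 (SD, n = 6) in male controls. In females it averaged 6.95 ± 0.14 (SD, n = 6) in knockdown arrays against 7.01 ± 0.18 (SD, n = 5).

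Of the high-affinity subunits, Grik5 had differences of opposite sign in the sexes. In males it stood at 9.50, 9.625 and 9.68 (lowest, median and highest) in knockdown arrays, against 9.31, 9.56 and 9.71 in controls, a difference of 0.070 (SE 0.053), with 5 of 6 knockdown arrays above the control mean. In females it stood at 9.93, 9.98 and 10.09 in knockdown arrays, against 9.99, 10.00, 10.08, 10.10 and 10.11 in controls, a difference of −0.066 (SE 0.056), with 5 of 6 below the control mean. The difference between these effects, males minus females, was 0.14 (95% interval −0.025 to 0.30, adjusted p = 0.887), so it was not larger than the spread between arrays. Grik4 averaged 7.84 ± 0.05 (SD, n = 6) in male knockdown arrays against 7.83 ± 0.08 (SD, n = 6) in controls. In females it averaged 7.97 ± 0.09 (SD, n = 6) against 8.05 ± 0.06 (SD, n = 5), with 5 of 6 knockdown arrays below the control mean.

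By limma, 0 of the 5 genes passed in males, in females, in the average of the sexes and in the difference of the effects, and 0 had an unadjusted p below 0.05 in any of these. The background was the same: 0% of the 41345 probe sets passed in each contrast, while 4.71% in males and in the average, 5.86% in females and 5.70% in the difference of the effects had an unadjusted p below 0.05. The adjusted p of the 5 genes were 0.996 to 0.997 in males and 0.889 to 0.997 in females. The 95% intervals reached from −0.24 (Grik1) to 0.22 (Grik1) in males and from −0.30 (Grik1) to 0.27 (Grik3) in females, and a p above the threshold does not show that the groups are alike. The mean of a cortical marker was higher in knockdown than in control males, though not beyond the spread between arrays. Slc17a7, the vesicular glutamate transporter of cortical excitatory neurons, had a mean of 8.63 ± 1.68 (SD, n = 6) in knockdown and 7.46 ± 2.44 (SD, n = 6) in control males. By limma this difference was 1.17 (SE 0.85, 95% interval −0.59 to 2.93, adjusted p = 0.996). With Slc17a7 as a covariate the male differences of Grik1, Grik2 and Grik3 changed sign, to 0.056, 0.029 and −0.078, again with none past the threshold. All 10 measured medium spiny neuron markers were higher in knockdown males too (median 0.097, 0 past the threshold). So were 5 of 5 oligodendrocyte precursor, 4 of 4 ependymal, 6 of 7 microglia and 3 of 4 endothelial markers, with 0 past the threshold. Of the interneuron, astrocyte and oligodendrocyte markers 5 of 11, 2 of 6 and 2 of 5 were higher. The part of all these markers in the differences of the kainate receptor genes was not tested.

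**Figure D2:**
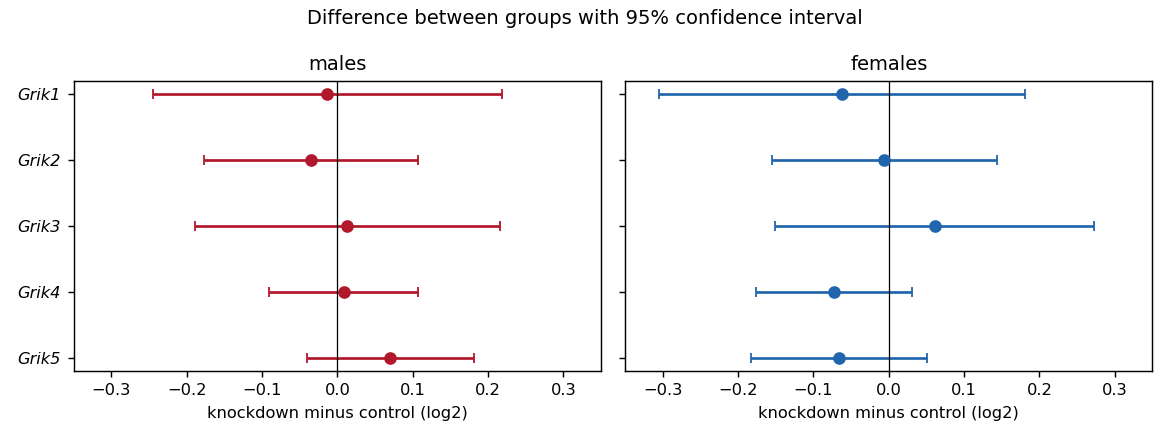
The knockdown minus control difference of each kainate receptor gene on the log2 scale in males (left) and females (right), with the 95% confidence interval from limma over all 23 arrays. All 10 intervals include 0.

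The genes around the receptor gave no call either. Of 14 measured (of 16 listed) auxiliary, scaffold and trafficking genes 11 were higher and 3 lower in male knockdown arrays, with a median difference of 0.023, and 7 were higher and 7 lower in females, with a median of 0.000. Their smallest p in males was that of C1ql2, a secreted C1q-like protein that recruits kainate receptors to synapses, at −0.19 (SE 0.08, adjusted p = 0.996). RNA editing enzymes, which recode GluK1 and GluK2 transcripts, included Adarb1 at 0.035 (SE 0.047) in males and −0.11 (SE 0.05, adjusted p = 0.850) in females. Of 11 AMPA, NMDA and delta receptor genes 9 were higher in males and 5 in females, with 0 past the threshold. The medians over all probe sets were 0.000 in males and 0.006 in females.

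The second question was how the subunits relate to the cortical signal in a sample. Within groups, Grik3 was higher and Grik2 lower in the arrays with more Slc17a7. Slc17a7 ranged from 5.37 to 9.97 in knockdown and from 4.64 to 10.34 in control males, the lowest value being close to the lower quartiles of these arrays (4.50 to 4.56). In females it ranged from 8.92 to 11.13 in knockdown and from 9.40 to 11.05 in control arrays. The mean of the 9 measured cortical markers of a list of 10 spanned 6.87 to 8.30 in knockdown and 6.70 to 8.51 in control males, and 7.70 to 8.67 in knockdown and 7.81 to 8.59 in control females.

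The male arrays show the pattern of Grik3 directly. Male controls 1 and 2, with Slc17a7 at 10.34 and 10.18, had Grik3 at 9.51 and 9.58. The controls with Slc17a7 at 8.01, 6.17, 5.43 and 4.64 had Grik3 at 9.10, 9.07, 9.14 and 9.16. In the knockdown males, Grik3 was 9.35 and 9.42 where Slc17a7 was 9.97 and 9.80, and 9.15 where Slc17a7 was 5.37, although male knockdown 5 had 9.36 with Slc17a7 at only 8.96. With that exception, Grik3 was high in the male samples richest in the cortical marker and lower in the others. Among the others it did not follow Slc17a7 in order, since the control with Slc17a7 at 4.64 had Grik3 at 9.16 and the one with 8.01 had 9.10. In females, both arrays with Grik3 at 10.00 or above (knockdown 3 and control 3) were the ones with the highest Slc17a7 of their group, 11.13 and 11.05. The order did not hold throughout, since female control 1, with the lowest Slc17a7 of the controls (9.40), had Grik3 at 9.66, above controls 2 and 5 at 9.56 and 9.59, whose Slc17a7 was 10.46 and 10.48.

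Grik2 ran the other way. It was 10.09 and 10.18 in male controls 1 and 2, against 10.31 to 10.43 in the other 4 controls. Among knockdown males it was lowest, at 10.12, where Slc17a7 was 9.97, and highest, at 10.38, where Slc17a7 was 5.37. Among females it was highest in knockdown 2 and control 1, at 10.96 and 10.86, which had the lowest Slc17a7 of their groups, 8.92 and 9.40. Here too there were exceptions. Male control 4, with Slc17a7 at 8.01, had Grik2 at 10.39, above controls 5 and 3 at 10.34 and 10.31, whose Slc17a7 was 6.17 and 5.43. Female control 3, with the highest Slc17a7 of the controls (11.05), had Grik2 at 10.66, above controls 2 and 4 at 10.65 and 10.62.

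In a limma fit over all probe sets with 1 mean per group and Slc17a7 as a covariate, Grik3 rose by 0.078 (SE 0.018, adjusted p = 0.0168) and Grik2 fell by 0.055 (SE 0.013, adjusted p = 0.0166) per log2 unit of Slc17a7. Thus 2 of the 5 kainate receptor genes passed, against 3.15% of all probe sets (1.55% with a positive and 1.60% with a negative slope), and 4 of 5 had an unadjusted p below 0.05, against 13.9%. These shares include dim probe sets, whereas all 5 genes lay above most probe sets in level. The share among brighter probe sets alone is not given here. The slope of Grik3 exceeded that of 98.2% of probe sets. Grik5 had a slope of 0.035 (SE 0.011, adjusted p = 0.0976), Grik1 one of −0.059 (SE 0.025, adjusted p = 0.286) and Grik4 one of −0.019 (SE 0.011, adjusted p = 0.520), none past the threshold. Whether Grik1 and Grik5 passed depended on the setting. With robust regression in limma both did, at −0.074 (adjusted p = 0.00158) and 0.032 (adjusted p = 0.0424). With only probe sets above the median level Grik5 did (adjusted p = 0.0453) and Grik1 did not (0.181). In bulk tissue, fewer cells of a type and less RNA per cell cannot be told apart. Both calls ended without male control 1 (adjusted p = 0.0658 for Grik3 and 0.0789 for Grik2), and that of Grik3 also without male control 2 (0.0909), the controls with the most Slc17a7. Without the 4 male arrays of lowest Slc17a7, a setting chosen after seeing the data, the slopes were steeper, at 0.18 (SE 0.03, adjusted p = 0.00742) for Grik3 and −0.14 (SE 0.02, adjusted p = 0.00379) for Grik2, while that of Grik1 was −0.011.

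Fitted with a slope for each sex, Grik2 had −0.044 (SE 0.011, adjusted p = 0.0337) in males and −0.17 (SE 0.03, adjusted p = 0.0383) in females. Grik3 had 0.067 (SE 0.018, adjusted p = 0.0468) in males and 0.19 (SE 0.06, adjusted p = 0.216) in females. Thus 2 of the 5 genes passed in males and 1 in females, against 2.64% and 0.414% of all probe sets. These calls lay close to the threshold. When single arrays of either sex were left out in turn, the male call of Grik3 was lost in 16 of 23 runs (adjusted p 0.0238 to 0.244), that of Grik2 in 5 (0.0150 to 0.186), and the female call of Grik2 in 10 (0.0208 to 0.518). Each slope kept its sign in all of these runs. Without female knockdown 2 and female control 1, which stood apart in Slc17a7, the female slope of Grik2 was −0.12 (SE 0.08, adjusted p = 0.787) and that of Grik3 0.41 (SE 0.12, adjusted p = 0.377), while over all groups both genes still passed (0.074 for Grik3 and −0.045 for Grik2). The difference of the slopes, males minus females, was 0.12 (SE 0.04, adjusted p = 0.430) for Grik2 and −0.12 (SE 0.06, adjusted p = 0.824) for Grik3, so neither gene was shown to differ between the sexes (0.00242% of probe sets passed). Grik1 had slopes of opposite sign, −0.073 (SE 0.025) in males and 0.085 (SE 0.080) in females, with a difference of −0.16 (adjusted p = 0.858). With Slc17a7 on the linear intensity scale, also chosen after seeing the data, the slope differences of Grik2 and Grik3 changed sign and were −0.019 (SE 0.064) and 0.085 (SE 0.082) per 1000 intensity units.

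**Figure D3:**
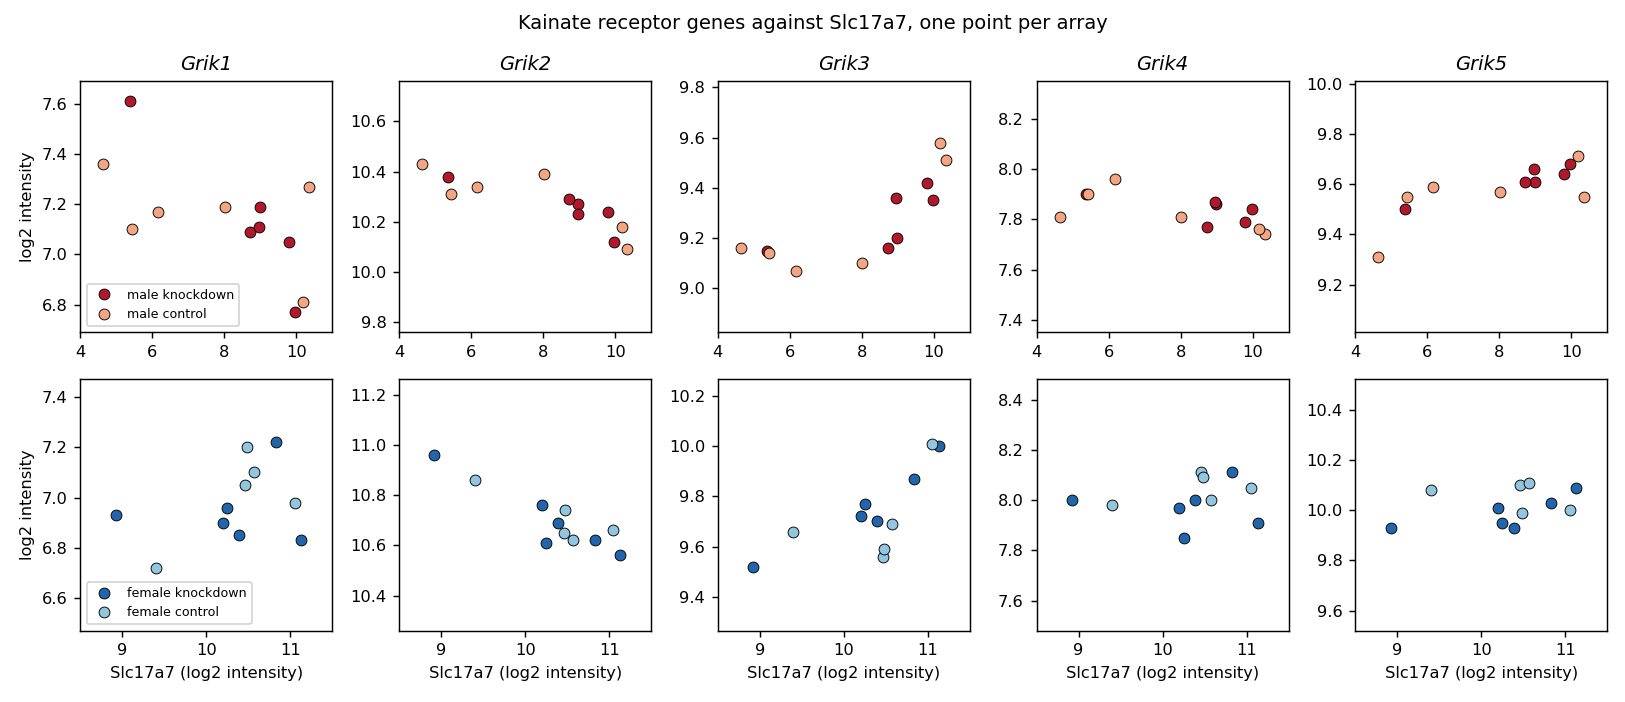
The log2 intensity of each kainate receptor gene (vertical axis, 1 log2 unit per panel) against that of Slc17a7 (horizontal axis), with 1 point per array, for males (top) and females (bottom). Grik3 is high and Grik2 low at the right of both rows, while the points of Grik4 and Grik5 in females show no common direction.

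Correlations of deviations from the group means were taken over the 12 males, over both sexes together and over 9 females, since female knockdown 2 and female control 1 stood apart in Slc17a7 by 41.0% of its range. By Pearson's r, 8 of 15 relations passed after adjustment over the 15, and 3 of 15 by Spearman's rho. The sets overlap, so these relations are not independent of each other. The 23 arrays hold the 12 males and the 9 females, and also female knockdown 2 and female control 1. For Grik2 over 23 arrays r was −0.74 (permutation p = 7e-05, adjusted 0.00105) and rho −0.74 (permutation p = 0.00026), and r was −0.70 without the 2 arrays farthest from the median. For Grik3 over 23 arrays r was 0.71 (permutation p = 0.00019, adjusted 0.00142) and rho 0.73 (permutation p = 0.00036), and r was 0.78 without the 2 farthest arrays. In males alone r was −0.84 for Grik2 (permutation p = 0.00361) and 0.79 for Grik3 (permutation p = 0.00801). In the 9 females r was 0.88 for Grik3 (exact p = 0.00347, adjusted 0.0108) and −0.60 for Grik2 (exact p = 0.140). Without the 2 arrays farthest from the median of these 9, r was 0.76 for Grik3 and −0.46 for Grik2. The 3 relations past the threshold by rho were those of Grik2 and Grik3 over 23 arrays and of Grik2 in males (adjusted permutation p = 0.0133). For Grik3 in a single sex, rho was 0.71 in males (adjusted permutation p = 0.0610) and 0.72 in the 9 females (adjusted exact p = 0.0610), neither past it.

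The other subunits gave less steady values. For Grik5 r over 23 arrays was 0.66 (permutation p = 0.00278, adjusted 0.0108). It fell to 0.37 without male knockdown 6 and male control 6, the arrays farthest from the median, so that its size depends on them. For Grik1 in males r was −0.65 (permutation p = 0.0259, adjusted 0.0486) and −0.29 without the same arrays. For Grik4 in males r was −0.66 (permutation p = 0.0431, adjusted 0.0718) and −0.82 without them. In the 9 females r was −0.06 for Grik1, 0.11 for Grik4 and 0.37 for Grik5, and without the 2 farthest arrays 0.80, 0.69 and 0.38.

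Markers of other cells moved with Slc17a7 as well. In the same fit, 4 of the 8 other measured cortical markers rose past the threshold and 0 fell past it. Among those that rose were the transcription factor genes Neurod6 at 0.60 (SE 0.05), Neurod2 at 0.43 (SE 0.04) and Tbr1 at 0.44 (SE 0.05). The rest of the list did not pass, with Emx1 at 0.062 (SE 0.026), Lamp5 at 0.011 (SE 0.021), Cux2 at −0.020 (SE 0.015) and Rasgrf2 at −0.037 (SE 0.022). Of 11 interneuron markers 4 fell and 1 rose past the threshold, while by sign alone 6 slopes were negative and 5 positive. Lhx6, a transcription factor of interneurons born in the medial ganglionic eminence, fell by 0.16 (SE 0.02). The interneuron markers did not move together, however. Npy, Sst and Nos1 had positive slopes of 0.052 (SE 0.021), 0.042 (SE 0.022) and 0.032 (SE 0.014), and Pvalb one of −0.027 (SE 0.029), none past the threshold. Slc5a7, the choline transporter of cholinergic neurons, fell by 0.12 (SE 0.02), while Vip, a neuropeptide gene, rose by 0.26 (SE 0.03). Of 5 oligodendrocyte precursor markers, Olig2 at −0.074 (SE 0.018) and Pdgfra at −0.053 (SE 0.015) fell. Fitted by sex, 4 of the 5 precursor slopes were positive in females (median 0.006) and 4 were negative in males (median −0.033). The interneuron markers had a median slope of 0.037 in females, with 0 calls down, and of −0.037 in males, with 4. For neither list did a difference between the sexes pass the threshold. None of the 10 medium spiny neuron markers passed over both sexes together (median slope 0.003), but most had slopes of opposite sign in the sexes. In females all 10 were negative, with a median of −0.13, Drd1 at −0.19 (SE 0.05, adjusted p = 0.179) and Foxp1 at −0.17 (SE 0.06, adjusted p = 0.302), none past the threshold. In males 8 of 10 were positive, with a median of 0.012, and for Drd1 the difference, males minus females, was 0.20 (SE 0.06, adjusted p = 0.407). The female slope of Grik2 was −0.17, and the part of the medium spiny neuron markers in the female slopes of the kainate receptor genes was not tested. With the mean of the medium spiny neuron markers as a second covariate over both sexes, the slopes were 0.077 for Grik3, −0.055 for Grik2 and 0.036 for Grik5, and Grik5 passed as well (adjusted p = 0.0439 by limma). No call was made either among astrocyte, oligodendrocyte, microglia, endothelial and ependymal markers, whose median slopes ran from −0.035 to −0.0098. The part of the interneuron and precursor markers in the slopes of the kainate receptor genes was not tested.

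Among the other ionotropic glutamate receptor genes the slopes were also of both signs, with 3 positive and 2 negative calls among 11. Grin2a and Grin2c, NMDA receptor subunits, rose by 0.11 (SE 0.01, adjusted p = 9.46e-05) and 0.063 (SE 0.016, adjusted p = 0.0266), and Gria3, an AMPA receptor subunit, rose by 0.088 (SE 0.013, adjusted p = 0.000367). Grin2d, the NMDA subunit found mostly in interneurons, fell by 0.091 (SE 0.020, adjusted p = 0.00907). Its slope was −0.10 (SE 0.02) in males, and the difference, males minus females, was −0.15 (SE 0.06, adjusted p = 0.693). The fall was therefore not seen in females. Of the 14 auxiliary, scaffold and trafficking genes 2 rose, Camk2a at 0.055 (SE 0.014) and Prkca at 0.076 (SE 0.020), which encode kinases, and C1ql2 fell by 0.071 (SE 0.015). Neto1 and Neto2, the auxiliary subunits that slow kainate receptor currents, had slopes of −0.004 (SE 0.015) and −0.006 (SE 0.013), neither past the threshold. Of 3 editing enzymes, Adarb2, a brain-specific member that lacks editing activity, fell by 0.093 (SE 0.025, adjusted p = 0.0472). Its slope was −0.11 (SE 0.02) in males but 0.12 (SE 0.07, adjusted p = 0.735) in females, with a difference of −0.23 (SE 0.07, adjusted p = 0.472). Among 5 other glutamate transporters, Slc1a2, the main astrocytic glutamate transporter, rose by 0.038 (SE 0.010, adjusted p = 0.0358).

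**Figure D4:**
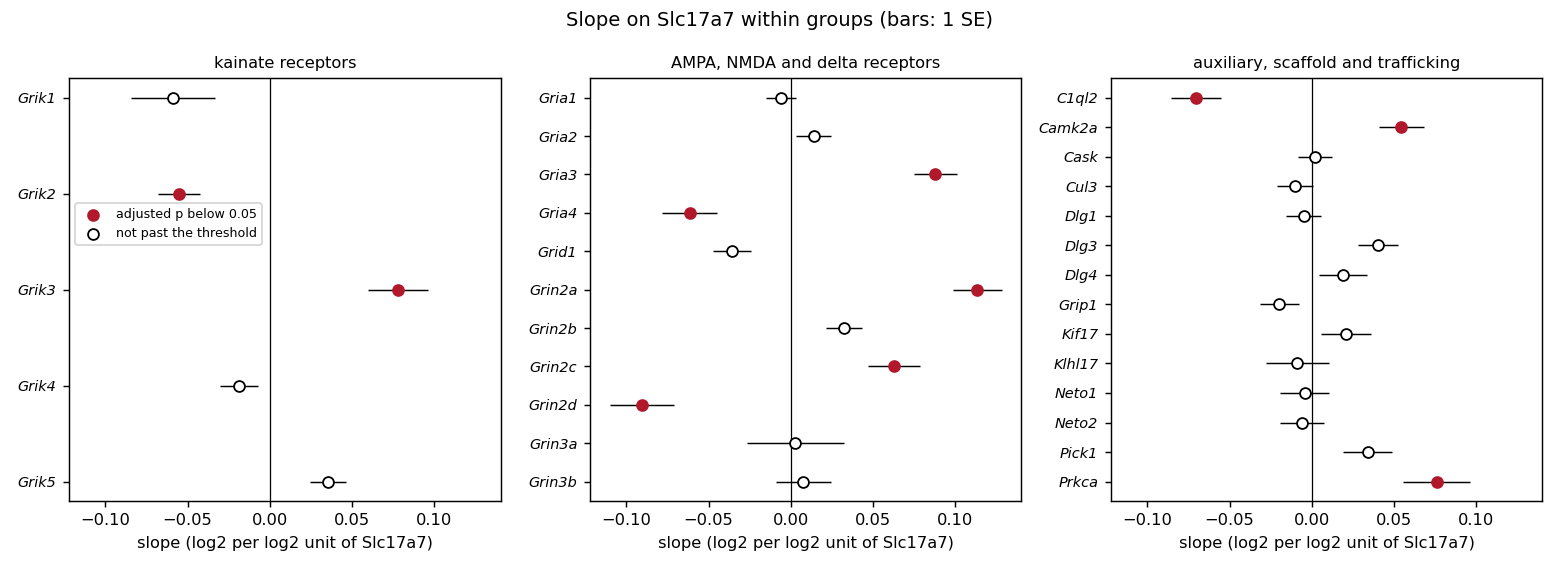
The within-group slope on Slc17a7 (log2 units of the gene per log2 unit of Slc17a7, with 1 SE) for kainate receptor genes, for AMPA, NMDA and delta receptor genes and for auxiliary, scaffold and trafficking genes over 23 arrays. Points in red passed the threshold of 0.05, adjusted across the array: 2 of 5, 5 of 11 and 3 of 14, with slopes of both signs in each panel.

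The subunits were also set against each other, over 10 pairs. Grik2 and Grik3 ran opposite to each other within groups, with r = −0.73 over 23 arrays (permutation p = 0.00046, adjusted 0.0046), rho = −0.73 (permutation p = 0.00063), and r = −0.62 without the 2 arrays farthest from the median of Grik2. The within-sex values were −0.83 in males and −0.64 in females. Grik1 and Grik5 had r = −0.58 (permutation p = 0.00609, adjusted 0.0304) and rho = −0.43 (permutation p = 0.0542), with −0.77 in males and −0.07 in females. The other 8 pairs had adjusted p of 0.0587 or more. These pairs were added with the relation to Slc17a7 known.

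The genes whose deviations from the group means were most like those of each subunit were searched among 22179 other genes, by Pearson's r over 23 arrays that share their tissue and normalization. For Grik3 they were Slit1 (r = 0.95), Vwa3a (0.93) and Sh3rf1 (0.92). For Grik2 they were Csmd3 (0.93), the µ opioid receptor gene Oprm1 (0.92) and Scaper (0.91). For Grik5 they were Ppp1ca (0.90), Mmd (0.90) and Kcnj4 (0.88), and for Grik1 Plcb4 (0.90), Adcy8 (0.86) and Mir669i (0.84). For Grik4 they were Cacng2 (0.81), Rab2b (0.81) and Pcdhb15 (0.79). These values describe likeness in these arrays and carry no test.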

How the data were processed

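The authors deposited log2 intensities, 1 value per probe set and array, for 41345 probe sets. Per the labels' protocols, cDNA was made from 150 ng of total RNA with a whole-transcript kit. Per the submitters' processing notes, Transcriptome Analysis Console was used, and no source used here names its version, its normalization or a genome build. Precision is limited by how many arrays there are.

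Genes were named through the platform annotation (23521 probe sets with 1 symbol, 1814 with several), each by its single-symbol probe set of highest mean. All 23 arrays entered limma 3.58.1 fits in R 4.3.3 with 1 mean per group (19 residual and 3.24 prior degrees of freedom), alone or with Slc17a7 as a covariate (18 residual degrees of freedom), with two-sided tests, Benjamini-Hochberg adjustment over all probe sets and a threshold of 0.05. Intervals are 95% confidence intervals. Correlations used 100000 two-sided permutations within groups, or all of them where fewer existed. P-values measure the spread between arrays. The fits were tested on simulated data, with added changes larger than the male differences and the slopes over all 23 arrays reported for the 5 genes. Recovery of changes as small as those reported was not tested. The 5 genes and the lists were chosen with earlier results of these data known. From each list the members past the threshold (at most 4) or the 2 of smallest p could be named, with the 5 genes, Nr1d1, Slc17a7 and the 3 most similar genes of each. A few further list members (Neto1, Neto2 and Adarb1 among them) were named for their role after their values were seen. Alternatives covered normalization, dim probe sets, weights, robust regression, a replicate block, covariates and single arrays.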

Additional observations from a re-analysis of the deposited data

Results flagged for a closer look

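In 4 of 28 combinations of gene and group, 1 array stood apart by Dixon's test, which flags about 5% of such groups by chance. Grik1 was 7.22 in female knockdown 6, above the other 5 knockdown females, and Grik3 was 10.01 in female control 3, above the other 4 controls. Nr1d1 was 9.93 in female control 4, below the other controls. Slc17a7 was 5.37 in male knockdown 6, against 8.72 to 9.97 in the other 5 knockdown males. The causes were not tested.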

How the results depend on the processing

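Under the other settings tried, 271 results kept their direction and side of the threshold, 15 fell short of it, 5 newly passed it, 20 changed sign and 13 counts moved by over 1.5 times. With single arrays left out the numbers were 938, 34, 1, 34 and 28. The knockdown comparisons gave 0 calls among the 5 genes under every setting. The relation to Slc17a7 within groups gave 0 calls with only males or only females in the fit. With a replicate block, and without male controls 1 and 6, it also gave 0. It gave 3 with probe sets above the median level, where Grik5 was added, and 4 with robust regression, where Grik1 and Grik5 were added. By sex, it gave 0 calls in either sex with the block, 0 in males without the 4 arrays of lowest Slc17a7, 0 in females and 1 in males without female knockdown 2 and female control 1, and 2 in females on the linear scale. Of 15 correlations with Slc17a7, 3 passed by ranks. Without the 4 males, 2 of 10 passed by Pearson's r and 0 of 10 by ranks. With single arrays left out, counts ran from 0 to 2 within groups and in males and from 0 to 1 in females. Replicate numbers shared no deviations (correlations −0.094 to 0.113 in females and −0.096 to 0.135 in males).

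Signs changed for small differences, and the causes were not tested. In females the knockdown difference of Grik2 was 0.019 after quantile normalization, 0.012 with array weights, 0.010 with the replicate block and −0.058 to 0.033 with single arrays left out. With Slc17a7 as a covariate the male differences were 0.056 for Grik1, 0.029 for Grik2, −0.078 for Grik3 and 0.020 for Nr1d1, and the male minus female effect of Grik2 was 0.041. Nr1d1 in males was 0.020 with robust regression. Without male controls 1 and 6 the male differences of Grik1 and Grik4 were 0.069 and −0.019. With only females in the fit the slopes of Grik1 and Grik4 were 0.085 and 0.014, and without female knockdown 2 and female control 1 the female slope of Grik1 was −0.022. The slope differences were 0.077 for Grik3 and −0.043 for Grik5 with the block, −0.0026 for Grik5 without the 4 males, −0.031 for Grik5 without the 2 females, and −0.019 for Grik2 and 0.085 for Grik3 on the linear scale. With single arrays left out the ranges were −0.11 to 0.060 for Grik1, −0.025 to 0.077 for Grik3, −0.0097 to 0.034 for Grik4 and −0.048 to 0.041 for Nr1d1 in males. They were −0.046 to 0.12 for Grik1, −0.069 to 0.023 for Grik2 and −0.13 to 0.016 for Grik3 in the male minus female effect, −0.014 to 0.028 for the slope difference of Grik5 and −0.0072 to 0.049 for the female slope of Grik4. A mean over several probe sets per gene gave no other value, since each of the 5 has 1. Settings using the 4 males, the 2 females or the linear scale, and all settings for the slope of each sex within the joint fit, were chosen after seeing the data.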
